A study of Mus musculus with 17 samples.

Results

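The γ-crystallin genes Crygs, Crygn and Crygf lie apart from the tandem array of Cryga, Crygb, Crygc, Crygd and Cryge on mouse chromosome 1. They were chosen by name and make up 3 of the 8 γ-crystallin genes and 3 of the 21938 protein-coding genes of the annotation. Crygs and Crygn are on other chromosomes. Crygf is on chromosome 1 as well, but 823 kb beyond Cryga with 4 protein-coding genes between them. The histone variant H3.3 was measured by ChIP-seq in 2 compartments of the lens of newborn CD1 mice, with 2 libraries of lens epithelium and 2 libraries of lens fiber cells. Each library was a pool, given as 150 lenses in the sample labels, from which 12 µg of chromatin were taken. The titles of the samples give day 1 after birth. No allele, transgene or agent distinguishes the groups, and the compartments were separated by microdissection. The labels call the 2 replicates of a compartment biological, and each is a pool, so that the spread between them says nothing of single animals.

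Crystallins are the soluble proteins that fill the fiber cells of the lens and give it its refractive power. The β- and γ-crystallins share a fold built of Greek key motifs, and their genes become active as cells of the lens epithelium leave the cell cycle and elongate into fibers. H3.3 can be placed in chromatin without DNA replication, and it is known for its presence over the bodies and starts of active genes. Crygs encodes γS-crystallin, a major protein of the outer fibers of the mature lens. Crygn encodes γN-crystallin, a protein with features of both the β- and the γ-crystallins. Crygf encodes γF-crystallin and is a near copy of Cryge.

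The measurements are islands, stretches of the genome that the peak caller SICER2 found to hold more H3.3 reads than chance would place there. Each island has a position and a count of its reads, and the reads outside of islands are not analysed here. Islands held 1331369 and 1430373 reads in epithelium replicates 1 and 2, and 5041885 and 5359085 reads in fiber replicates 1 and 2. These are sums over called islands and not sequencing depths, which are unknown, so that a gene without an island is a gene without a called island and its level has no lower limit. The fiber libraries also had more islands, 27059 and 35940 against 10389 and 14434, so that coverage in fiber was higher over the genome in general. For every gene the covered share was taken as the percentage of bases inside islands, over the gene body and over a window of the gene body with 5 kb on each side.

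In GRCm38, the mm10 build used for the islands, Crygs (ENSMUSG00000033501.5) occupies chr16:22805203-22811577 on the minus strand with 3 exons and a coding sequence of 178 codons. Crygn (ENSMUSG00000038135.4) occupies chr5:24751003-24758008 on the minus strand with 4 exons and 183 codons. Crygf (ENSMUSG00000025945.11) occupies chr1:65926520-65928307 on the plus strand with 3 exons and 174 codons. The bodies are 6375, 7006 and 1788 bp long, so that the windows span 16375, 17006 and 11788 bp. The stretches just before the gene starts are shown because these are the bases that lay in islands in both fiber libraries and in neither epithelium library. They are from RefSeq on GRCm38.p6, read 5′ to 3′ on the strand of the gene, with matches to the searched motifs in capitals for Crygs (chr16:22811578-22811660, minus strand) and Crygn (chr5:24758009-24758098, minus strand). A further short stretch of Crygs (chr16:22811418-22811447, minus strand) holds its TATA box letters in capitals.
Crygs: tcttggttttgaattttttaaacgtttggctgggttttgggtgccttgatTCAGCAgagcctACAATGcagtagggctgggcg
Crygn: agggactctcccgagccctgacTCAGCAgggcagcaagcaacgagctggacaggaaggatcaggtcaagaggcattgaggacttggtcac
Crygs TATA site: tgaactgccctcTATAAAtgtccctctgcc

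The promoter of Crygf is set beside that of Cryge to show how alike the genes are. Capitals mark the longest run of bases that both promoters hold, 55 bases long. Crygf shares a longer run, 64 bases, with Crygd, whereas over the whole promoter window it is 83.1% identical to Cryge and 68.6% to Crygd. Crygf is at chr1:65926272-65926529 on the plus strand and Cryge at chr1:65051142-65051413 on the minus strand.
Crygf: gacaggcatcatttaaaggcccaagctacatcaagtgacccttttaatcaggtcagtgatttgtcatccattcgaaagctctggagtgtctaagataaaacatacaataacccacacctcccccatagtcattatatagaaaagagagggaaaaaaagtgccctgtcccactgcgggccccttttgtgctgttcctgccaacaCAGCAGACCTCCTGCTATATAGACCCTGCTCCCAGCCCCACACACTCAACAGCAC
Cryge: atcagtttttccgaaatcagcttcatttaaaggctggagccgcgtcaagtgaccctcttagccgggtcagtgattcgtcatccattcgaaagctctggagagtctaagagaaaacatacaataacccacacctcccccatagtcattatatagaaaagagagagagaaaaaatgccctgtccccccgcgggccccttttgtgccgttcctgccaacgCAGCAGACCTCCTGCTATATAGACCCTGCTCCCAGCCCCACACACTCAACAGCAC

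The question put to the islands was whether H3.3 at these genes differs between the compartments, and where along each gene it lies. Every member had an island over its start in both fiber libraries and in neither epithelium library. Of all protein-coding genes, 15.6% had this pattern. In the cluster 3 of 5 genes had it (Crygb, Crygc and Crygd), and of the 6 β-crystallin genes listed none did. The starts of Crygc and Crygd lie in the same island in each fiber library and are not separate observations. The islands differed in extent: those at Crygs and Crygn were among the longest and densest of the fiber libraries, and those at Crygf were not. In pools of cells, fewer cells with H3.3 at a gene and less H3.3 per cell cannot be told apart. When each library was held to 10389 islands, Crygs and Crygn had the pattern still and Crygf had it no longer, under the ranking by reads per kb (4.28% of all genes) and by reads (4.47% of all genes).

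**Figure D1:**
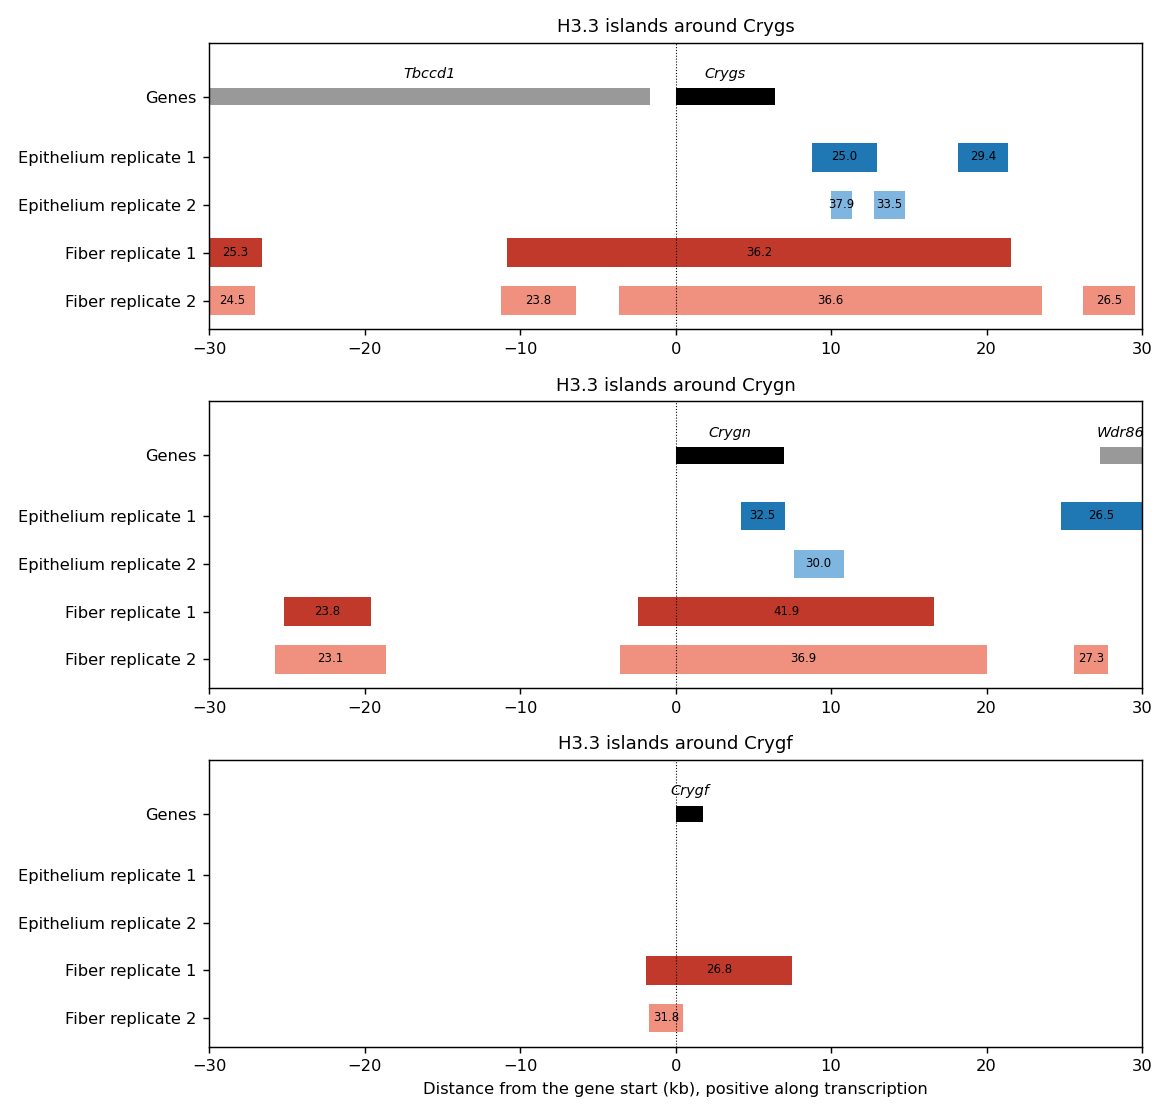
H3.3 islands within 30 kb of the start of Crygs, Crygn and Crygf, with distance in kb along transcription on the x axis and 1 line per library. Colored bars are islands with their reads per kb printed inside, black bars the member and gray bars neighboring protein-coding genes. At each start both fiber libraries have an island and neither epithelium library does.

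At Crygs the fiber islands ran over the whole gene. The island of fiber replicate 1 was 32400 bp long and held 1172 reads, or 36.2 reads per kb. That of fiber replicate 2 was 27200 bp long and held 996 reads, or 36.6 reads per kb. Each was longer than 99.3% of the islands of its library, with 192 and 232 longer ones, and denser than 94.5% and 93.7% of them. The islands shared 25200 bp. They began 10823 and 3623 bp before the gene start and ended 15202 and 17202 bp past the gene end, and before the start they took in 9187 and 1987 bp of the body of Tbccd1.

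The epithelium islands at Crygs lay past the end of the gene and not over it. Epithelium replicate 1 had an island of 4200 bp with 105 reads, 25 reads per kb, which was denser than 13.0% of the islands of that library. Epithelium replicate 2 had one of 1400 bp with 53 reads, 37.9 reads per kb, denser than 95.3%. The shorter island was wholly inside the longer one. They began 8777 and 9977 bp from the gene start, whereas the gene ends 6374 bp from it. A second island in each epithelium library lay still farther downstream, outside of the window, and both islands of each library were inside the fiber islands, where they filled 22.8% and 10.5% of the island of fiber replicate 1.

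The window of Crygs was covered by 15.9% and 8.54% in the epithelium libraries and by 100% and 91.6% in the fiber libraries. The compartments did not overlap. The means were 12.2% ± 5.18 in epithelium and 95.8% ± 5.95 in fiber (SD, n = 2 each). The difference of 83.6 percentage points was far larger than the spread between replicates, but an exact two-sided permutation test of 2 against 2 libraries cannot go below p = 0.33, which is the value it gave. The gene body was covered by 0% in both epithelium libraries and by 100% in both fiber libraries, all 3 exons and both introns included. The 5 kb before the start were covered by 0%, 0%, 100% and 72.5%, and the 5 kb past the end by 52.0%, 28%, 100% and 100%, in the order epithelium 1, epithelium 2, fiber 1 and fiber 2.

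At Crygn the fiber islands likewise extended past both ends of the gene. Fiber replicate 1 had an island of 19000 bp with 797 reads, 41.9 reads per kb, which was denser than 99.0% and longer than 96.9% of the islands of its library. Fiber replicate 2 had one of 23600 bp with 872 reads, 36.9 reads per kb, denser than 94.2% and longer than 99.0%. The island of replicate 1 lay wholly inside that of replicate 2. They began 2392 and 3592 bp before the gene start and ended 9602 and 13002 bp past the gene end, so that more of each lay downstream than upstream.

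The epithelium libraries each had 1 island in the window of Crygn, and these did not share a base. The island of epithelium replicate 1 spanned 2800 bp, held 91 reads at 32.5 reads per kb and covered 2798 bp at the 3′ end of the gene body, where exon 4 was the only exon that it reached. That of epithelium replicate 2 spanned 3200 bp, held 96 reads at 30.0 reads per kb and lay past the gene end, with a gap of 600 bp to the position of the other. Both were inside the fiber islands. The start of Crygn and its first 3 exons were thus free of islands in epithelium in both replicates.

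The window of Crygn was covered by 16.5% and 18.8% in the epithelium libraries and by 84.7% and 91.7% in the fiber libraries. Means were 17.6% ± 1.66 and 88.2% ± 4.99 (SD, n = 2 each), a difference of 70.6 percentage points (exact permutation p = 0.33, the smallest possible here). Again the compartments did not overlap. Over the gene body alone the values were 39.9%, 0%, 100% and 100%, so that the epithelium replicates were far apart there.

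Crygf had no island in either epithelium library within the window, and its fiber islands were shorter and differed between the replicates. Fiber replicate 1 had an island of 9400 bp with 252 reads, 26.8 reads per kb, denser than 44.4% and longer than 85.0% of the islands of its library. Fiber replicate 2 had one of 2200 bp with 70 reads, 31.8 reads per kb, denser than 78.9% and longer than 7.82%. The shorter island was wholly inside the longer one. Both began close together, 1919 and 1719 bp before the gene start, but the first ended 7480 bp after the start and the second 480 bp after it.

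Only fiber replicate 1 had the body of Crygf covered in full. In fiber replicate 2 the island covered 26.9% of the body, with exons 1 and 2 and none of exon 3. The window was covered by 0% in both epithelium libraries, by 73.9% in fiber replicate 1 and by 18.7% in fiber replicate 2. The fiber libraries were both above the epithelium libraries, with a mean difference of 46.3 percentage points and an SD of 39.0 in fiber (exact permutation p = 0.33, n = 2 each). The size of the difference thus rests on which fiber library is used, 73.9 points with replicate 1 alone and 18.7 points with replicate 2 alone.

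**Figure D2:**
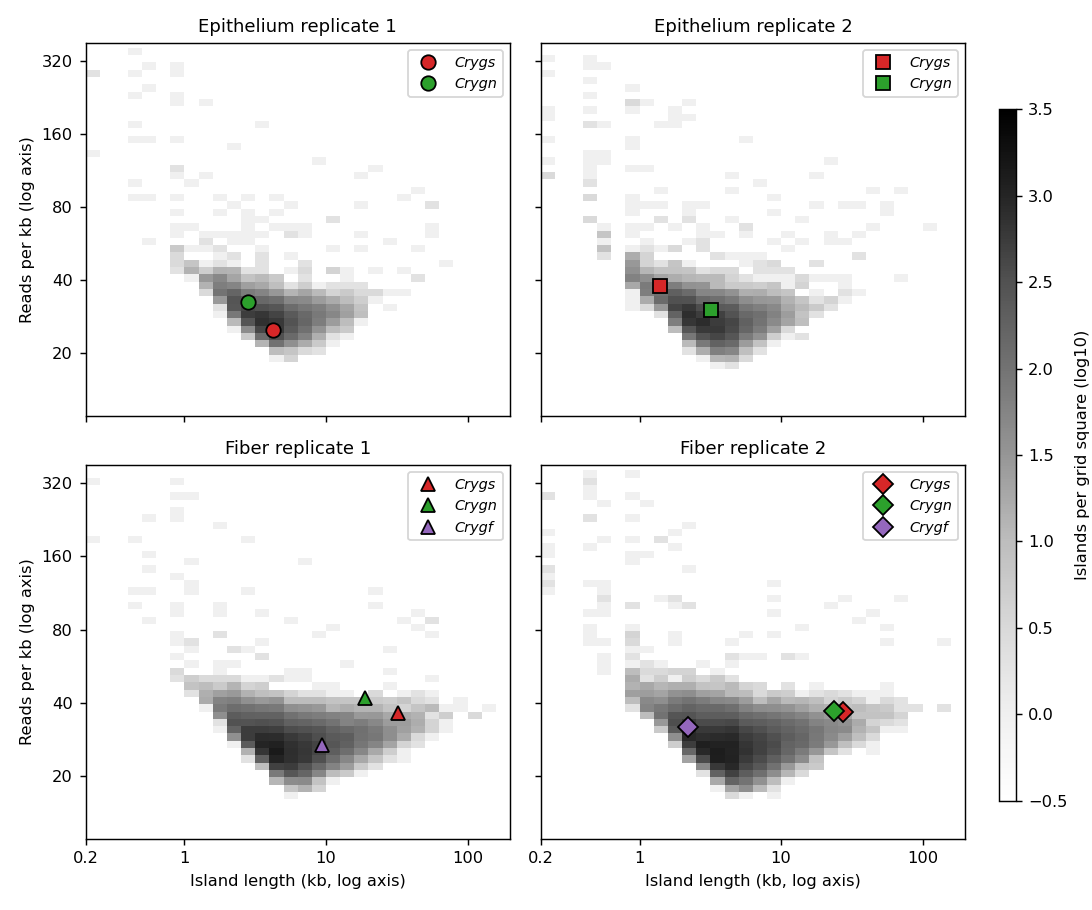
Length in kb and reads per kb of the islands of each library, both on log axes (the few islands beyond the plotted ranges are left out), with gray shade for the log10 number of islands per square of the grid. Colored symbols are the islands at Crygs, Crygn and Crygf. In the fiber libraries Crygs and Crygn lie toward the long and dense edge, from 19000 to 32400 bp, and Crygf lies within the bulk.

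The islands of Crygs and Crygn had similar densities in fiber, 36.2 to 41.9 reads per kb against a median of 27.4 and 27.5 over all islands of the fiber libraries. At Crygs the raw density of the fiber islands lay between those of the epithelium islands. At Crygn the raw density was higher in both fiber islands than in both epithelium islands, at 1.53 and 1.34 times the median density of the islands of the same library in fiber and 1.15 and 1.07 times in epithelium. At Crygf the longer island was the less dense one.

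Reads were also counted over the whole window, with the reads of an island assigned in proportion to its overlap. At Crygs there were 3.97 and 3.23 reads per kb in the epithelium libraries and 36.2 and 33.5 in the fiber libraries, a 9.68-fold raw ratio that carries the totals of the libraries. Scaled to 1000000 reads in islands per library, the values were 2.98, 2.26, 7.17 and 6.26, or 2.62 ± 0.509 against 6.72 ± 0.648 (SD, n = 2 each), a 2.56-fold ratio (exact permutation p = 0.33). At Crygn the scaled values were 4.02, 3.95, 7.04 and 6.32, or 3.98 ± 0.0514 against 6.68 ± 0.509, a 1.68-fold ratio (exact permutation p = 0.33, n = 2 each). Across the 5246 genes with islands in the window in all 4 libraries, the median of the scaled ratio was 0.576 and that of the raw ratio was 2.18. Crygf had 19.8 and 5.94 reads per kb in the fiber libraries, 3.93 and 1.11 after scaling, and no epithelium value to divide by.

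Against the rest of the genome, coverage of the window was higher in each fiber library than in each epithelium library for 45% of protein-coding genes and lower for 0.67%. All 3 members were among the former, as were the 5 genes of the cluster and the 6 β-crystallin genes. This direction alone therefore sets them little apart. The median difference over all genes was 4.72 percentage points, with the 5th percentile at 0 and the 95th at 53.9. The difference at Crygs exceeded that of 99.8% of genes, at Crygn that of 98.9% and at Crygf that of 91.8%.

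**Figure D3:**
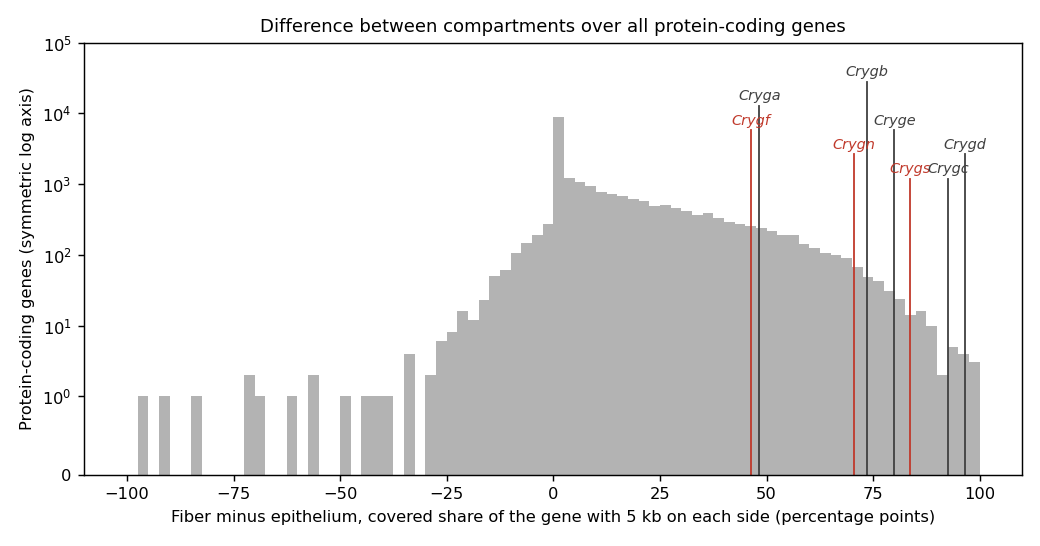
Histogram of the fiber minus epithelium difference in covered share of the window, in percentage points, over 21938 protein-coding genes, with the number of genes on a symmetric log axis. Red lines mark Crygf, Crygn and Crygs at 46.3, 70.6 and 83.6 points, and dark lines the 5 clustered genes from 48.3 to 96.5 points.

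An island in the gene body in both fiber libraries, with no condition on epithelium, was found at all 3 members, against 48.1% of all genes and 34.7% of those with bodies of at most 10 kb. An island in the gene body in both fiber libraries and in neither epithelium library was found at Crygs and Crygf, 2 of 3, against 15.9% of all genes and 8.98% of the shorter ones. The cluster had 4 of 5 and the β-crystallins 0 of 6. Crygn missed this count through the island of epithelium replicate 1. The body was covered in full in both fiber libraries at Crygs and Crygn, against 4.06% of all genes and 10.6% of those of at most 10 kb, at 3 of 5 genes of the cluster and at 6 of 6 β-crystallins. A window covered by at least 90% in both fiber libraries was found for Crygs alone among the members, against 1.78% of all genes, for Crygc and Crygd of the cluster and for 5 of 6 β-crystallins. Some β-crystallins share an island with each other in each fiber library, as Crygc and Crygd do, so that these counts are not of separate observations.

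Beside the cluster, Crygs was exceeded by Crygd and Crygc in the difference between compartments. From the highest, the order ran Crygd with 96.5 points, Crygc with 92.6, Crygs with 83.6, Cryge with 80.0, Crygb with 73.6, Crygn with 70.6, Cryga with 48.3 and Crygf with 46.3. Crygs and Crygn differed from the clustered genes in their epithelium libraries, each with an island in the window in both replicates, whereas in the cluster the only epithelium island was one of 3400 bp with 99 reads at Cryge in replicate 2. Neither this nor the order was tested between genes.

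**Figure D4:**
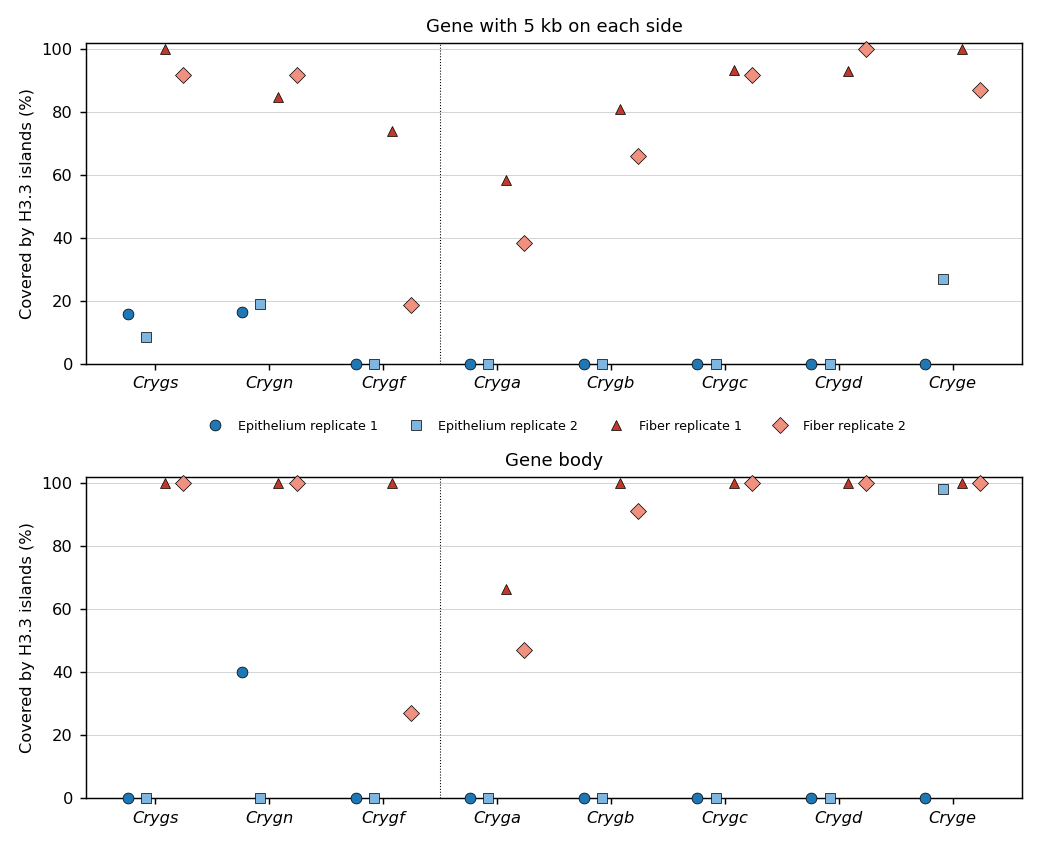
Share of bases covered by H3.3 islands in percent for the 8 γ-crystallin genes, over the window (top) and over the gene body (bottom), 1 symbol per library. The members stand left of the dotted line, and Crygs has 0% of its body covered in epithelium and 100% in fiber.

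The flanking genes differed from locus to locus. Around Crygs the nearest 2 protein-coding genes on each side, Etv5 and Dgkg on one and Tbccd1 and Dnajb11 on the other, all had a higher covered share of the window in both fiber libraries, and all 4 had the start covered in fiber and not in epithelium, against 45% and 15.6% of all genes. The starts of Tbccd1 and Dnajb11 lie in the same island in each fiber library and are not separate observations. Tbccd1, only 1.636 kb from Crygs, was covered by 0% in both epithelium libraries and by 44.0% and 44.4% in fiber. Of these covered bases of Tbccd1, 59.1% in fiber replicate 1 and 28.9% in fiber replicate 2 lay in the island that also covers Crygs. Etv5, which encodes an ETS transcription factor downstream of FGF signaling, was covered by 4.4%, 4.7%, 54.6% and 87.3%.

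Around Crygn the sides differed. Rheb, the GTPase that activates mTORC1, was covered by 0%, 6.8%, 52.6% and 29.3%, and Prkag2, a regulatory subunit of AMP-activated kinase, by 1.3%, 2.7%, 87.8% and 87.0%. Their starts were covered in fiber and not in epithelium. On the other side Wdr86, 20.3 kb from the gene, had 49.0%, 20.7%, 15.2% and 26.9%, and Nub1 had 17.8%, 15.4%, 0% and 10.3%. Nub1 was higher in each epithelium library than in each fiber library, as 0.67% of all genes were, and the values of Wdr86 overlapped between the compartments. The epithelium islands in the window of Nub1 also lay in that of Wdr86, so that these genes are not separate observations.

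Crygf stood in a region with few islands. In the 786 kb between Pth2r and Map2, its neighboring genes, neither epithelium library had an island, fiber replicate 1 had 1 and fiber replicate 2 had 2, and those at Crygf are counted in these. The nearest other island below Crygf was 739 kb or more away in every library. Above Crygf, the nearest other island was 245 kb away in fiber replicate 2 and 1096 kb or more away in the other libraries. Pth2r and Unc80 were covered by 0% in all 4 libraries, Pikfyve by at most 2.9% and Map2 by at most 0.9%, both in fiber replicate 2 alone. A window without an island in any library was found for 35.5% of all genes.

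**Figure D5:**
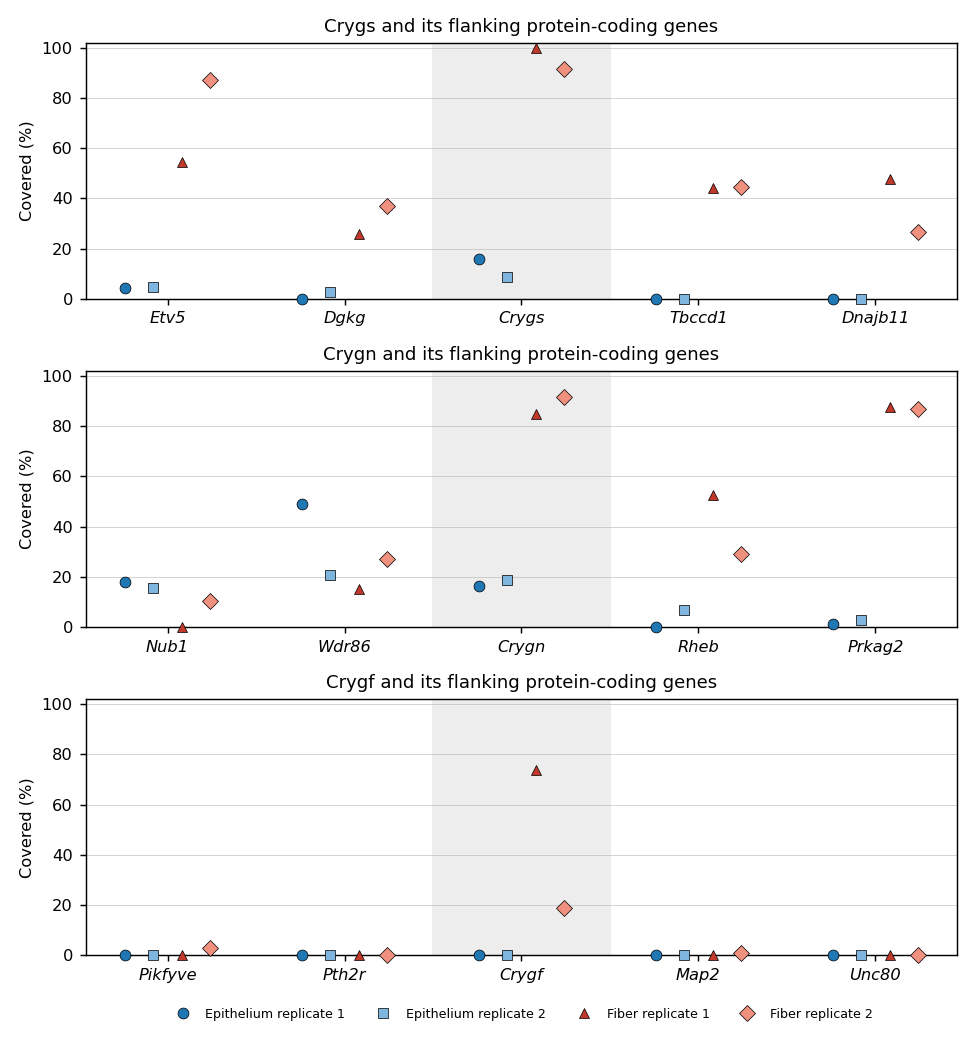
Share of the window covered by H3.3 islands in percent for each member (gray band) and the 2 nearest protein-coding genes on each side, in chromosomal order, 1 symbol per library. The genes around Crygs are higher in fiber, those around Crygn are divided by side, and those around Crygf lie at or near 0% in all libraries.

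The promoter windows of all 3 members, 250 bases before to 50 after the RefSeq start, lay wholly inside islands in both fiber libraries and outside of islands in both epithelium libraries, against 12.2% of 32851 promoters. Those of Crygb, Crygc and Crygd did so too. At Cryge, the near copy of Crygf, the window was also covered in full in epithelium replicate 2. The RefSeq starts lie 167 bp downstream of the GENCODE start in Crygs, 160 bp in Crygn and 2 bp in Crygf. In all, 4 motifs were searched on both strands in these windows and in those of all 32851 promoters. TATAAA, the TATA box letters searched, was found in Crygs and in 13.6% of all promoters. TGCTGA, the core of a Maf half-site, was found in Crygs and Crygn, each time on the other strand as TCAGCA, and in 19.5% of all. ACAATG, a Sox motif, was found in Crygs and in 12.6%, and CCAAT, the CCAAT box, in Crygs and in 37.4%. The window of Crygf held no exact match to any of the 4. Its run shared with Cryge, printed above in capitals, holds TATATAG, which differs from TATAAA, and near matches were not searched. The GC content was 44.3% in Crygs, 63.0% in Crygn and 49.3% in Crygf.

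How far the sequences of the members could be told apart bears on where reads were placed. Crygf and Cryge agreed in 512 of 522 aligned bases of the coding sequence, 98.1%, and Crygf and Crygd in 90.6%. Crygs and Crygn had 54.4% in common with each other, and Crygf shared 58.1% with Crygs and 54.1% with Crygn. Of the 75-base stretches that begin in the body of Crygf, 118 of 1788, 6.60%, occur more than once in the genome, and all 118 occur in the body of Cryge. In Crygs it was 1 of 6375 and in Crygn none of 7006, whereas 15.9% of the stretches in the window of Crygn are repeated, all of them in the flanks. The part that reads from Cryge may have in the counts of Crygf was not tested.

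By reads per kb of the window over the 4 libraries, on the log2 scale after adding 1, the genes most like Crygs were Nuak1, Arid3b and Rac1, each with a root mean square difference of 0.24. Those most like Crygn were Ssx2ip (0.083), Gm49396 (0.086) and Timeless (0.13), and those like Crygf included Jmjd4 (0.022) and Arrdc2 (0.15). The order of likeness is a description over 4 libraries.

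Markers of the tissue were read in the same way. Of 9 lens fiber genes, 8 had an island in the body in both fiber libraries and 4 and 5 in the epithelium libraries. Bfsp1, Lim2 and Dnase2b had none in epithelium, and Lgsn had none in any library. Of 6 lens epithelium genes, 4 and 6 had an island in the epithelium libraries and all 6 in both fiber libraries, so that the presence of an island did not separate epithelium markers by compartment. Summed over the window, the fiber list had 25.9, 46.7, 231 and 225 reads per kb, and the epithelium list 45.8, 78.2, 148 and 148, with Pax6 the highest in epithelium and Sfrp1 in fiber. Scaled to 1000000 reads in islands per library, the fiber list remained higher in fiber, with 19.5, 32.6, 45.8 and 42.0, whereas the epithelium list was higher in epithelium, with 34.4, 54.7, 29.4 and 27.6. Genes in general were also higher in epithelium after this scaling, with the median ratio of 0.576 given above. The direction of the epithelium list thus does not set it apart from other genes. Foxe3 and Sfrp1 of that list had no island in the body in epithelium replicate 1.

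Markers of other tissues were mostly without islands. Among 4 genes of vessels, 1, 2, 2 and 2 had an island in the body, in the order above, with summed values of 0.968, 1.93, 5.64 and 4.78 reads per kb with Pecam1 or Cdh5 the highest and Kdr and Tek without islands. Of 5 genes of blood and macrophages, 0, 1, 1 and 1 had one, which was Csf1r each time, and the sums were 0, 3.99, 8.28 and 10.9, while Ptprc, Hbb-bs and Hba-a1 had no island in the body. Of the retina genes, Rcvrn, Crx and Nrl had no island in the body in any library. Scaled to 1000000 reads in islands per library, the vessel sums were 0.727, 1.35, 1.12 and 0.892 and the blood sums 0, 2.79, 1.64 and 2.04, so that the values of the compartments overlapped. No gene of cornea and surface epithelium had an island in the body in any library, with Krt5 at 4.67 reads per kb of the window in fiber replicate 2 and all else at 0. Of 4 melanocyte genes, 2 had one in fiber replicate 2 alone, where the sum was 3.61 and Pmel the highest, and Tyr and Mlana had none. The part of other cells in the values of Crygs, Crygn and Crygf was not tested.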

How the data were processed

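H3.3 was profiled by ChIP-seq with an anti-H3.3 antibody in 2 epithelium and 2 fiber libraries. Single-end reads of 75 nt were aligned to mm10 with BWA (aln and samse) by the authors, who called islands in each library with SICER2 (window 200 bp, gap 600 bp, false discovery rate 0.01). The deposited tables give start, end and an unnormalized read count per island. Removal of duplicates and the use of the pooled input are not given in the sources used here, and depth is unknown. The Methods and the labels differ in the number of lenses, and the labels themselves give P0.5 and P1. The pooled input and the bisulfite libraries were not analysed here.

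Positions were converted to count from 1 and joined to GENCODE vM21 with Python 3.11.15 and numpy 2.4.6. An overlap of at least 1 bp counted, and reads were prorated over the length of an island. With no depth, no count model was fitted: covered shares were compared by exact two-sided permutation of libraries (6 splits). Coding sequences were aligned globally with Biopython 1.88, and 75-base stretches were counted on both strands. The code was tested on simulated islands, where 1000 of 1000 covered lengths equaled a per-base count.

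Named genes were the members, the other γ-crystallins, the 6 β-crystallins by counts only, the nearest 2 protein-coding genes on each side, the 3 genes most alike and tissue markers, some of which are not reported here. Members and lists were chosen with earlier results of these data known. Alternatives left out each replicate, filtered, joined or equalized islands, changed the window or the overlap, and used the replicate number as a block.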

Additional observations from a re-analysis of the deposited data

How the results depend on the processing

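The fiber minus epithelium difference kept its direction at each member under all 12 alternatives run, from 79.4 to 100 percentage points for Crygs and from 62.2 to 80.0 for Crygn. For Crygf it went from 9.33 to 73.9. It was 18.7 without fiber replicate 1 and 73.9 without fiber replicate 2, 26.6 with 10 kb on each side, 36.9 with equal numbers of islands ranked by reads, and 9.33 with islands of at least the median density and with equal numbers ranked by density. In the last 3 of these only 1 fiber library kept an island. The exact permutation test could not reach p = 0.05 under any of the 12. Several of the 12 could not have reversed the direction. The compartments did not overlap, so that leaving out a library could not reverse it, and the replicate block alters only the test. Dropping islands below 600 bp or joining those within 1 kb left the difference unchanged at each member. The replicate block left the differences at 83.6, 70.6 and 46.3 with a smallest possible exact p = 0.5, and same-numbered libraries did not deviate together (r = 0.00617 across 21938 genes, which are not independent replicates).

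The count of genes with a body island in both fiber libraries and no epithelium library, 3499, became 1148 with equal numbers by density, 1107 with equal numbers by reads, 1861 at 50% of the body covered and 698 among bodies of at most 10 kb. Leaving out each library in turn gave 3911 to 5354, the highest without epithelium replicate 2. Depth limits what a missing island means, and the unequal totals of reads in islands (5041885 and 5359085 in fiber, 1331369 and 1430373 in epithelium) run with the compartment. Their part in island length was not tested, since the equal-number settings drop islands and leave the length of those kept as called.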
